A study of Arabidopsis thaliana with 4 samples.

Results

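The SPL transcription factors targeted by miR156 were followed through nuclear RNA that was pulled down with MTA, the methyltransferase that places N6-methyladenosine (m6A) on mRNA. The members are 10 loci chosen by name: SPL2 (AT5G43270), SPL10 (AT1G27370), SPL11 (AT1G27360), SPL9 (AT2G42200), SPL15 (AT3G57920), SPL13A (AT5G50570), SPL13B (AT5G50670), SPL3 (AT2G33810), SPL4 (AT1G53160) and SPL6 (AT1G69170), among 32548 loci in the files. All 10 had at least 1 read, and 8 passed a minimum of 40 reads summed over the 4 libraries, which SPL4 and SPL15 did not. The first line carried MTA-GFP, while the control line is a GFP line by its titles and a CFP line by its genotype entry. All plants were Arabidopsis thaliana Col-0, aged 4 weeks and grown in soil at 22 °C with 16 h of light and 8 h of dark. Their leaves were fixed in 0.1% formaldehyde, nuclei were isolated, and tagged protein was captured on GFP-Trap beads. The 4 groups were the MTA-GFP immunoprecipitate (IP), the MTA-GFP input, the control IP and the control input, with 1 library each. The promoter of the transgenes, the number of lines and whether the MTA-GFP plants kept their own MTA gene are not given in the labels.

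SPL proteins bind DNA through an SBP-box domain and drive the change from juvenile to adult leaves and on to flowering. In young plants miR156 is abundant and holds down its SPL targets by cleavage and by block of translation, and its decline with age releases them. The site lies in the coding region of most of these mRNAs and in the 3' UTR of SPL3 and SPL4. MIR172 genes, the flowering regulators SOC1 and FUL, and the trichome repressors TCL1 and TRY are known to act downstream of SPL proteins.

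Library totals were 36098699 reads for the MTA-GFP IP, 43950307 for the MTA-GFP input, 45198238 for the control IP and 40011502 for the control input. Nuclear mRNA took 8.43%, 2.30%, 2.11% and 4.31% of them in the same order, so the members rest on few reads. With 1 library a group there is no replicate check and no test of the conditions. Intervals are 95% intervals for counting error only, and reads amplified by PCR are not independent molecules. Reads were scaled between libraries with TMM factors, which set the typical nuclear locus near a ratio of 1. The IP of a line divided by its own input is given as its enrichment, and the MTA-GFP enrichment divided by the control enrichment as the double ratio. A locus was called higher or lower when its ratio passed 2-fold and its interval left out 1. The MTA transcript had 12860 and 2291 reads in the MTA-GFP IP and input, against 31 and 64 in the control IP and input. Leaf mesophyll genes (RBCS1A, CAB3, CA1 and RCA, 4 of 4 with reads) dominated the markers, at a summed 12839 and 15973 RPM of nuclear mRNA in the MTA-GFP IP and input and 9490 and 5253 in the control IP and input. All 4 were called higher between the inputs, where 7.05% of all loci tested were, and lower in the double ratio, where 8.93% were. Their part in the SPL results was not tested. Of the shoot meristem markers, WUS and CLV3 had 0 reads in every library, and STM and KNAT1 summed to 8, 11, 5 and 26 reads in the order of libraries above. The 4 flower markers summed to 8, 3, 2 and 3 reads, and the 3 root markers to 150, 63, 28 and 109.

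The SPL family as a whole stood above the typical locus in the MTA-GFP enrichment, by less than 2-fold. The 10 loci summed to 1236 and 205 reads in the MTA-GFP IP and input, and to 291 and 455 in the control IP and input. After TMM scaling the MTA-GFP IP was 1.63-fold its input (1.41 to 1.90) and the control IP was 1.25-fold its input (1.07 to 1.45). Scaled to nuclear mRNA reads, the control enrichment was 1.15 with an interval that included 1 (0.992 to 1.34). The double ratio was 1.31 (1.06 to 1.61), and its interval included 1 once SPL13A and SPL13B were left out (a log2 of 0.049, -0.35 to 0.45). Compared directly, the family was 1.04-fold in the MTA-GFP IP relative to the control IP, with an interval that included 1 (0.917 to 1.19). Without SPL13A and SPL13B that ratio between the IPs was at a log2 of -0.249, with an interval off 0 (-0.483 to -0.010). Between the inputs the whole family was 0.798-fold in MTA-GFP relative to control (0.673 to 0.943), so the inputs enter the double ratio too. As a share of all reads the family took 34.2 RPM (32.4 to 36.2) in the MTA-GFP IP and 4.66 (4.05 to 5.35) in its input, against 6.44 (5.72 to 7.22) in the control IP and 11.4 (10.4 to 12.5) in the control input. On that scale its enrichment was 7.32 with MTA-GFP (6.33 to 8.55) and 0.567 in the control (0.487 to 0.657). The log2 shift of the median locus between both scales was 2.14 for the MTA-GFP enrichment, -1.11 for the control enrichment and 3.26 for the double ratio.

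**Figure D1:**
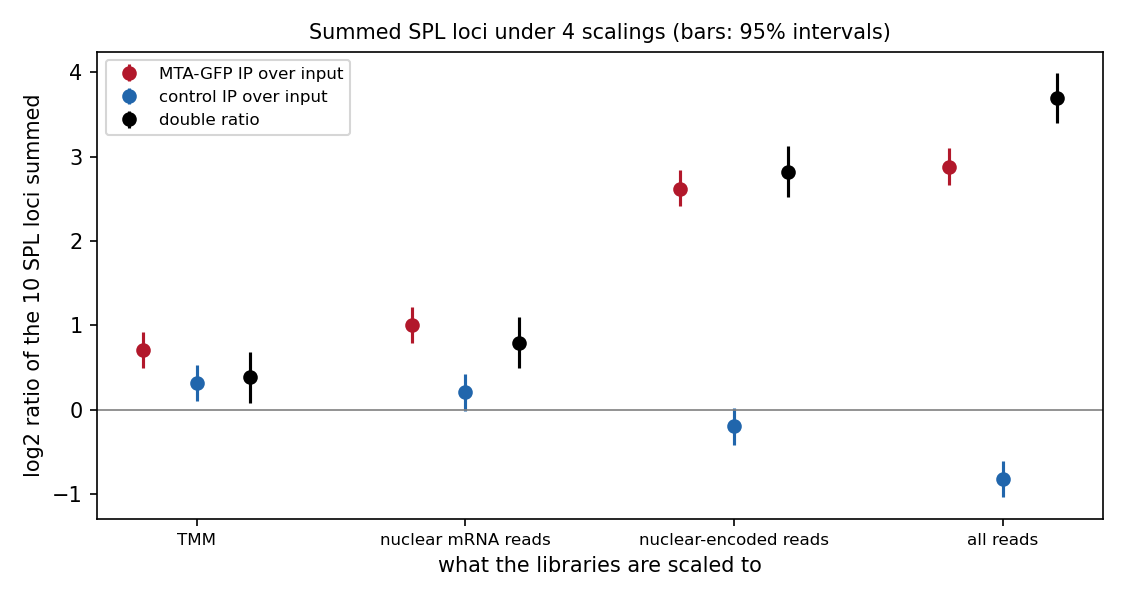
Log2 ratios of the 10 SPL loci summed, with 95% intervals for counting error, when the libraries are scaled by TMM, to nuclear mRNA reads, to nuclear-encoded reads or to all reads. The MTA-GFP enrichment is above 0 on each of the 4 scales, while the control enrichment is at 0.32 with TMM and at -0.82 with all reads.

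The SPL13 genes held the most reads, and among the members past the minimum theirs were the double ratios with intervals off 1. SPL13A and SPL13B are near-identical copies that act in the change to adult leaves, and reads that match both are divided between them by the quantifier. SPL13B had 473 and 82 reads in the MTA-GFP IP and input, against 99 and 193 in the control IP and input. SPL13A had 105 and 16 reads in the MTA-GFP IP and input, against 0 and 29 in the control IP and input. SPL13A was thus without a read in the control IP alone, a library in which SPL13B had 99. Its MTA-GFP enrichment was 1.76 (1.04 to 3.22). For a bound, a floor of 3 reads was set in the control IP, with the reads of the other libraries taken as exact. On these terms SPL13A was at least 4.95-fold lower in the control IP relative to input and at least 8.79-fold higher in the double ratio. The counting intervals were wider, ending at 0.265-fold for the first ratio and starting at 6.30-fold for the double ratio. SPL13A took 18.2% (15.1 to 21.6) and 16.3% (9.63 to 25.2) of the reads of the pair in the MTA-GFP IP and input, 0 of 99 in the control IP (exact interval up to 3.66%, or 3.03% from the floor of 3 reads), and 13.1% (8.93 to 18.2) in the control input. Among 1601 loci past the minimum with 25 to 33 reads in the control input, 9 had 0 reads in the control IP, or 0.562%, and the median was 14. The window lies around the 29 reads of SPL13A, which is itself among the 9. The minimum of 40 reads also removes some loci with 0 reads in the control IP, so this share can be too low. The overlapping gene AT5G50565 had 61 and 17 reads in the MTA-GFP IP and input, and 18 and 32 in the control IP and input. Whether the 0 of SPL13A comes from how shared reads were divided was not tested, so the sum of both copies is the safer value.

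Summed, the SPL13 pair had 578 and 98 reads in the MTA-GFP IP and input, against 99 and 222 in the control IP and input. The MTA-GFP IP was 1.59-fold its input (1.29 to 1.998), while the control IP was 0.871-fold its input with an interval that included 1 (0.680 to 1.11). The double ratio of the pair was 1.83 (1.33 to 2.52), below 2-fold with an interval off 1. Between the IPs the pair was 1.43-fold in MTA-GFP over control (1.16 to 1.79), and between the inputs it was 0.782-fold (0.610 to 0.996). In such mixed tissue fewer cells of a type and less RNA per cell cannot be told apart. On the TMM scale the pair stood at 244 and 153 reads in the MTA-GFP IP and input, against 170.3 and 196 in the control IP and input, so the order of the lines turned between IP and input. SPL13B alone had a double ratio of 1.56 (1.11 to 2.18). For SPL13B the ratio between the IPs was 1.17 with an interval that included 1 (0.943 to 1.47), and between the inputs 0.753 (0.574 to 0.979).

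**Figure D2:**
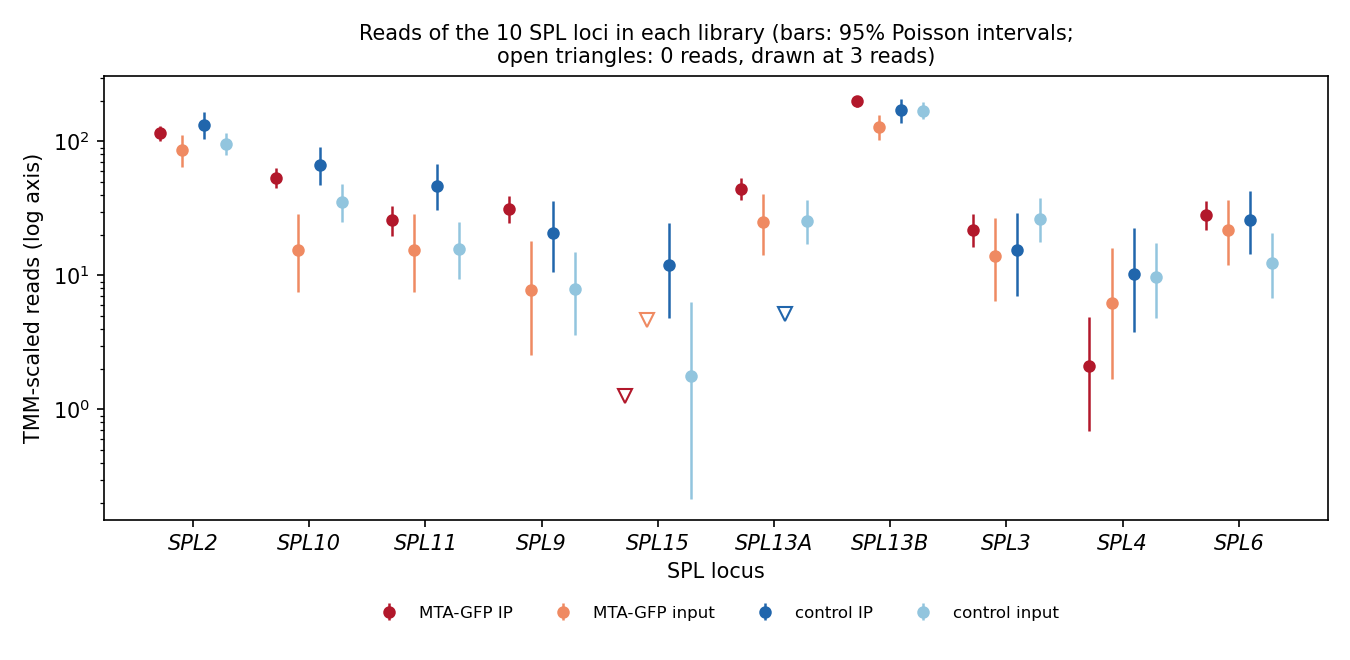
TMM-scaled reads of each SPL locus (log axis) in the MTA-GFP IP, MTA-GFP input, control IP and control input, with exact 95% Poisson intervals; an open triangle marks a library with 0 reads, drawn at 3 reads. SPL13B and SPL2 lie highest in every library, SPL13A has no reads in the control IP, and SPL15 has none in the MTA-GFP libraries.

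SPL2, SPL10 and SPL11 form a clade that shapes leaves, trichomes and the shoot. SPL10 and SPL11 are closely related copies that lie next to each other. SPL2 had 272 and 55 reads in the MTA-GFP IP and input, against 77 and 109 in the control IP and input. Its ratios of IP over input were near each other, at 1.34 with MTA-GFP (0.999 to 1.82) and 1.38 with the control (1.02 to 1.86), and its double ratio was 0.970 (0.644 to 1.46). SPL10 had 127 and 10 reads in the MTA-GFP IP and input, against 39 and 40 in the control IP and input. It was called higher in the MTA-GFP IP, at 3.37-fold its input (1.81 to 7.34), and was at 1.89 in the control (1.19 to 3.04). The 10 reads of the MTA-GFP input enter that ratio, and the same library stood at 0.449-fold the control input (0.197 to 0.901), which was called lower. Between the IPs SPL10 was at 0.801 (0.555 to 1.18), so a difference between the 2 IPs was not detectable at this depth.

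SPL11 had 61 and 10 reads in the MTA-GFP IP and input, against 27 and 18 in the control IP and input. It was called higher in the control IP, at 2.88-fold its input (1.56 to 5.65), and was at 1.63 with MTA-GFP (0.839 to 3.61). SPL11 was 0.559-fold in the MTA-GFP IP relative to the control IP (0.347 to 0.908), and 0.712-fold with an interval that included 1 (0.444 to 1.16) when scaled to nuclear mRNA reads. Summed, the 3 genes of the clade were 1.66-fold (1.30 to 2.15) in the MTA-GFP enrichment and 1.67-fold (1.33 to 2.10) in the control enrichment. The clade had a double ratio of 0.993 (0.714 to 1.38), near the typical locus. Between the IPs the clade was 0.790-fold in MTA-GFP over control (0.653 to 0.960), and 1.01-fold (0.835 to 1.23) when scaled to nuclear mRNA reads. Between the inputs it was 0.796-fold with an interval that included 1 (0.597 to 1.05). Reads shared by SPL10 and SPL11 could be divided between them, and SPL10 took 127 of 188 reads and 10 of 20 reads of their sum in the MTA-GFP IP and input, and 39 of 66 and 40 of 58 in the control IP and input.

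SPL9 and SPL15 are paired genes that set the pace of leaf initiation and promote flowering. SPL9 had 74 and 5 reads in the MTA-GFP IP and input, against 12 and 9 in the control IP and input. It had the highest MTA-GFP enrichment among the members past the minimum, at 3.85-fold (1.64 to 12.7), with an interval that overlapped that of SPL10. SPL9 passed the minimum through the MTA-GFP IP, which held 74 of its 100 reads, so the filter can favour this rank. It was called higher in the control IP too, at 2.52-fold (1.01 to 6.99). The control call ended when the libraries were scaled to nuclear mRNA reads, at 2.33-fold (0.9296 to 6.46). A difference between the enrichments of SPL9 was not detectable at this depth, with a double ratio of 1.53 (0.456 to 5.12). SPL15 had 0 reads in both MTA-GFP libraries, against 7 and 2 in the control IP and input. At this depth 3 reads would be 0.986 RPM of nuclear mRNA in the MTA-GFP IP and 2.97 in its input. AT3G57910 overlaps SPL15 in the reference table and had 29 and 20 reads in the MTA-GFP IP and input, and 6 and 47 in the control IP and input. The strand setting of the counting is not stated, so reads of such overlapping genes cannot be told apart.

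SPL3 and SPL4 encode small proteins with little beyond the DNA-binding domain and promote floral identity. SPL3 had 52 and 9 reads in the MTA-GFP IP and input, against 9 and 30 in the control IP and input. It was at 1.55-fold (0.764 to 3.61) in the MTA-GFP enrichment and 0.592-fold (0.245 to 1.27) in the control enrichment. The double ratio of SPL3 was 2.61 with an interval that included 1 (0.957 to 7.13). The non-coding AT2G33815, which overlaps SPL3, had 8 reads in the MTA-GFP IP and 0 in the other libraries. SPL4 had 5 and 4 reads in the MTA-GFP IP and input, against 6 and 11 in the control IP and input. SPL4 was 0.236-fold in the MTA-GFP IP relative to the control IP (0.0494 to 0.805), from the 5 and 6 reads above, and was below the minimum for a call.

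SPL6, known for a role in disease resistance, had 67 and 14 reads in the MTA-GFP IP and input, against 15 and 14 in the control IP and input. Its ratios of 1.29 with MTA-GFP (0.721 to 2.50) and 2.06 with the control (0.941 to 4.68) both had intervals that included 1. The double ratio of SPL6 was 0.627 (0.252 to 1.56).

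**Figure D3:**
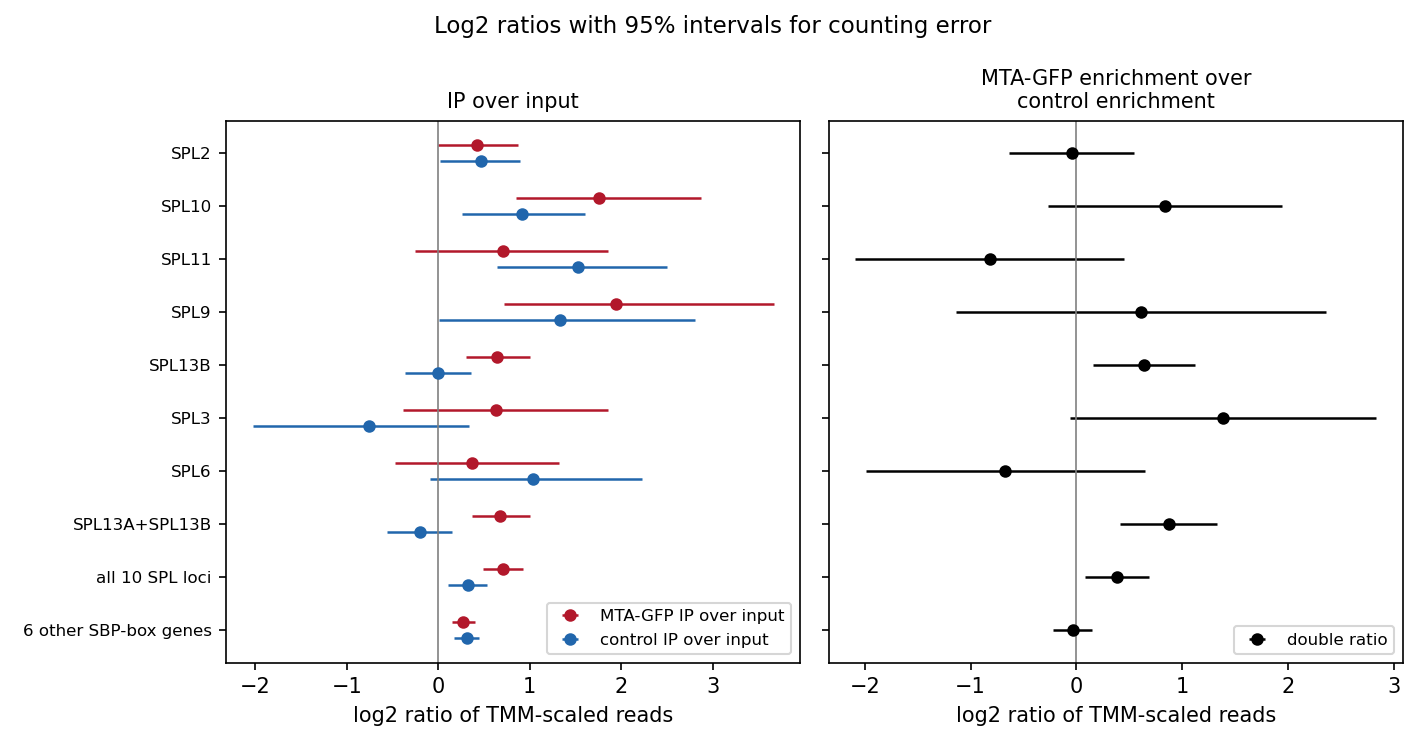
Log2 ratios of TMM-scaled reads with 95% intervals for SPL loci past the minimum of 40 reads (SPL13A shown only in the sum with SPL13B), for the 10 SPL loci summed and for the 6 SBP-box genes not targeted by miR156. The SPL13 pair has a double ratio of 0.87 (0.41 to 1.33), SPL13B alone has 0.64 (0.15 to 1.12), and the other members drawn have intervals that include 0.

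Counted over the 8 members past the minimum, 2 (SPL9 and SPL10) were called higher and 0 lower in the MTA-GFP enrichment, where 7.17% of 15669 loci were called higher and 8.44% lower (15.6% in either direction). In the control enrichment 2 were higher (SPL9 and SPL11) and 1 lower (SPL13A), against 9.20% and 12.4% of all loci (21.6% in either direction). In the double ratio 1 was higher (SPL13A) and 0 lower, against 8.78% and 8.93% (17.7% in either direction), and with SPL13A and SPL13B summed as 1 locus 0 were called. Scaled to nuclear mRNA reads, which moved the median locus by 0.41 in log2, 4 members (SPL13A, SPL13B, SPL10 and SPL3) and 17.7% of all loci were called higher in the double ratio, so these added calls come with a shift of all loci. Between the IPs 1 was higher (SPL13A) and 0 lower, against 5.12% and 4.23% (9.36% in either direction), and between the inputs 0 were higher and 1 lower (SPL10), against 7.05% and 6.80% (13.8% in either direction). The median log2 ratio of the 8 members was 0.67 in the MTA-GFP enrichment, 0.69 in the control enrichment and 0.62 in the double ratio, against -0.034, -0.013 and -0.008 over all loci tested. With SPL13A at its bound the last 2 medians stayed at these values, which was fixed in advance. SPL13A remained the lowest of the 8 in the control enrichment and the highest in the double ratio. The minimum was set on raw reads, and 74 of the 100 reads of SPL9 came from the MTA-GFP IP, so SPL9 passed it through that library. These counts and medians describe the members that passed and not all 10. The comparisons share libraries and are not independent of each other.

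The makeup of the family does not depend on the scaling of the libraries. The SPL13 pair took 46.8% (44.0 to 49.6) of the SPL reads in the MTA-GFP IP and 47.8% (40.8 to 54.9) in its input, against 34.0% (28.6 to 39.8) in the control IP and 48.8% (44.1 to 53.5) in the control input. The control IP was the library that stood apart. The clade of SPL2, SPL10 and SPL11 took 37.2% (34.5 to 39.98) and 36.6% (30.0 to 43.6) in the MTA-GFP IP and input, against 49.1% (43.3 to 55.0) and 36.7% (32.3 to 41.3) in the control IP and input. Against the other members, the SPL13 pair was 0.959-fold (0.714 to 1.29) in the MTA-GFP enrichment and 0.542-fold (0.4003 to 0.735) in the control enrichment, which gave a double ratio of 1.77 (1.16 to 2.70). The same ratios of the clade were 1.03-fold (0.755 to 1.39) with MTA-GFP and 1.66-fold (1.24 to 2.24) in the control, a double ratio of 0.616 (0.402 to 0.944). These shares sum to a whole, so a lower share of the pair raises that of the clade.

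**Figure D4:**
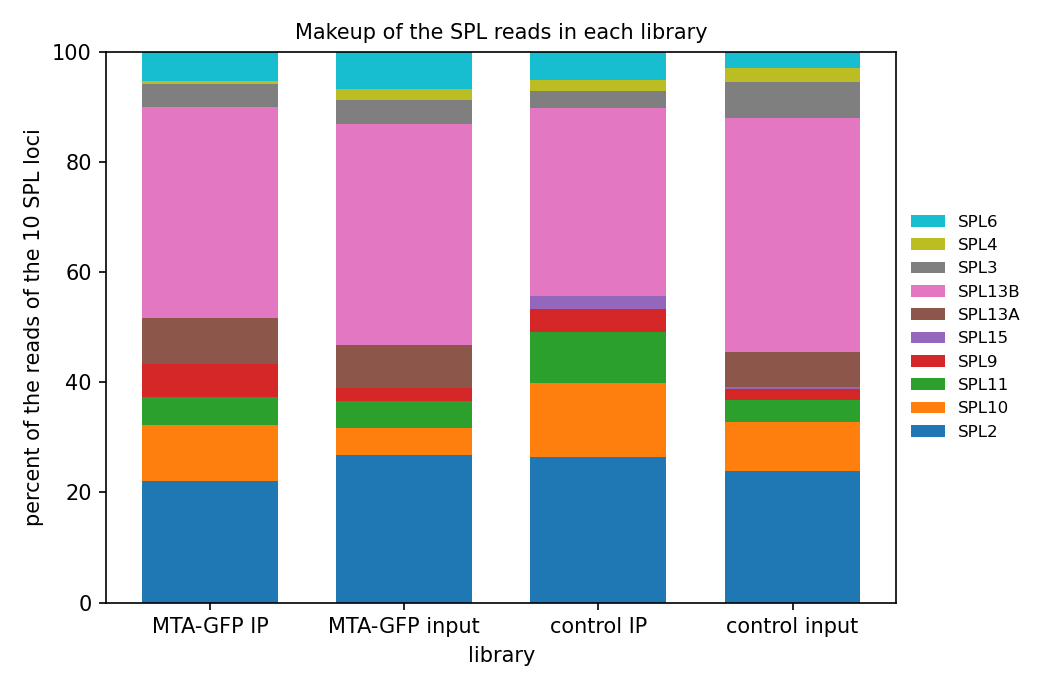
Percent of the reads of the 10 SPL loci that fell on each locus, as stacked bars for the MTA-GFP IP, MTA-GFP input, control IP and control input. SPL13A and SPL13B together make up 46.8% of the MTA-GFP IP and 47.8% of its input, against 34.0% of the control IP and 48.8% of the control input.

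The SBP-box genes that miR156 does not target served as a comparison within the family. These are SPL1, SPL7, SPL8, SPL12, SPL14 and AT1G76580, of which SPL7 is the regulator of copper homeostasis. They summed to 2796 and 626 reads in the MTA-GFP IP and input, against 750 and 1182 in the control IP and input. Their ratios of IP over input were close to each other, at 1.21 with MTA-GFP (1.11 to 1.32) and 1.24 with the control (1.13 to 1.36), and their double ratio was 0.976 (0.860 to 1.11). Relative to them the 10 targeted loci were 1.35-fold (1.14 to 1.60) in the MTA-GFP enrichment and 1.01-fold (0.848 to 1.199) in the control enrichment. The double ratio of 1.34 (1.05 to 1.71) needs no library factor. With both lines compared directly, MTA-GFP relative to control, the targeted loci were at 1.14 in the IPs (0.979 to 1.32). In the inputs they were at 0.85 (0.703 to 1.03). Both intervals included 1, so a difference from the non-targeted genes was not detectable in the IPs alone. Without the SPL13 pair the other 8 targeted loci were 1.37-fold (1.10 to 1.71) with MTA-GFP and 1.30-fold (1.05 to 1.61) with the control, and the double ratio of 1.06 (0.778 to 1.44) included 1. Of all 7 other SBP-box genes 6 passed the minimum, and 0 were called in either enrichment or in the double ratio, where 15.6%, 21.6% and 17.7% of all loci were called, too few genes to read as a difference. SPL5, the closest relative of SPL4 and also known as a miR156 target, had 28 and 4 reads in the MTA-GFP IP and input, against 9 and 21 in the control IP and input. It was called lower between the inputs, at 0.352-fold, with an interval that ended just below 1.

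Compared per length, SPL13B and SPL2 were the most abundant members in every library. Levels here are the deposited TPM of a locus rescaled to the nuclear mRNA of its library (mRNA TPM), with the counting interval of its reads. SPL13B had levels of 145 (132 to 159) and 69.9 (55.6 to 86.7) mRNA TPM in the MTA-GFP IP and input, and of 90.7 (73.7 to 110) and 97.0 (83.8 to 112) in the control IP and input. SPL2 came next at 77.2 (68.3 to 87.0) and 45.3 (34.1 to 59.0) in the MTA-GFP IP and input, and at 68.7 (54.2 to 85.8) and 56.0 (46.0 to 67.6) in the control IP and input. The intervals of SPL13B and SPL2 overlapped in the MTA-GFP input and the control IP. SPL3 followed at 32.9 (24.6 to 43.2) and 15.4 (7.02 to 29.2) in the MTA-GFP IP and input, and 32.3 (21.8 to 46.1) in the control input. In the control IP SPL10 at 24.2 (17.2 to 33.1) and SPL11 at 22.0 (14.5 to 32.0) lay above SPL3 at 17.0 (7.76 to 32.2), with overlapping intervals. SPL9 was at 22.3 (17.5 to 27.9) and 4.08 (1.33 to 9.52) in the MTA-GFP IP and input, and at 10.8 (5.59 to 18.9) and 4.63 (2.12 to 8.78) in the control IP and input. From SPL3 downward, each locus overlapped its neighbours in this order in all libraries, except SPL4 in the MTA-GFP IP, at 2.60 (0.845 to 6.07), which lay below SPL11 at 14.98 (11.5 to 19.2), and the loci at 0 reads.

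The rest of the miR156 pathway was sparsely read. Of 12 MIR156 and MIR157 genes 4 had a read, and 1, MIR157C, passed the minimum with 48 and 14 reads in the MTA-GFP IP and input, against 4 and 16 in the control IP and input. Its other 3 libraries sum to fewer reads than the minimum, so it passed through the MTA-GFP IP, and any ratio between the IPs rests on the 4 control IP reads. MIR156C, a main source of miR156 in seedlings, had 7 and 1 reads in the MTA-GFP IP and input, against 9 and 0 in the control IP and input, and MIR156A had 1 read in all. Of 5 MIR172 genes 3 had a read, and their sum of 53 and 6 reads in the MTA-GFP IP and input, against 11 and 15 in the control IP and input, gave a log2 ratio of 1.22 (0.04 to 2.77) for the MTA-GFP enrichment and 0.50 (-0.75 to 1.74) in the control. Of 8 genes downstream of SPL proteins all had a read, and 1, SOC1, passed the minimum. SOC1 was at a log2 of 0.73 (0.23 to 1.29) in the MTA-GFP enrichment and was called higher in the control IP at 1.24 (0.71 to 1.79). LFY and AP1, which mark floral meristems, had 2 and 0 reads in the MTA-GFP IP, 0 and 4 in its input, 0 and 0 in the control IP and 2 and 0 in its input.

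RGA and GAI, the DELLA repressors that bind SPL9 and other SPL proteins, stood above the typical locus in both enrichments. RGA was called higher in both lines, with a log2 enrichment of 1.18 (0.74 to 1.65) in MTA-GFP and 1.73 (1.31 to 2.18) in the control. GAI was at 0.97 (0.47 to 1.52) in MTA-GFP, just below the call, and was called higher in the control at 1.37 (0.85 to 1.91). Their double ratios of -0.56 (-1.16 to 0.04) and -0.40 (-1.11 to 0.31) included 0. Of 4 regulators of MIR156 genes 3 passed the minimum. VAL1, a repressor of MIR156A and MIR156C, was below its input in both lines, at -0.38 (-0.75 to -0.007) with MTA-GFP and, called lower, at -1.46 (-1.98 to -0.98) in the control. Its double ratio was thus called higher at 1.08 (0.48 to 1.68) without a higher level in the MTA-GFP IP relative to input. Its relative VAL2 was at -0.69 (-1.21 to -0.18) in the double ratio, below 2-fold.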

How the data were processed

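Nuclear RNA of 4 libraries was analysed. The submitters' processing notes name Trimmomatic, Bowtie, HISAT2 and Salmon, with TAIR10 as the build; no roles, versions or strand setting are stated. The 55524 entries of each deposited table carry an estimated count and a TPM value, per the file headers. The deposited estimated counts were added up within each locus and then rounded. Groups came from the sample titles. The 32548 loci were matched to a reference gene table (assembly TAIR10.1), used for symbols, gene types and overlaps.

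TMM factors came from edgeR 4.0.16 in R 4.3.3 over 15669 loci with at least 40 reads, at 2.37, 0.641, 0.581 and 1.14 (MTA-GFP IP, MTA-GFP input, control IP, control input). On average 0.5 reads, in proportion to the factors, were added before log2. Intervals are exact conditional (Clopper-Pearson) for ratios of 2 libraries, from Poisson variances for double ratios and for ratios against other loci, exact Poisson for levels and exact binomial for shares. Nuclear mRNA leaves out loci within 10 kb of ribosomal RNA genes. DESeq2 1.42.0 gave alternative size factors. The procedure was tested on simulated counts.

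All SPL loci are named. Of the comparison lists, loci past 2-fold with an interval off 1 are named, with up to 2 others per list that had the most reads, MTA, and the 5 loci whose pattern was most like the SPL sum. MIR156A, LFY, AP1, some markers and the overlapping genes were named after their values were seen. Members, lists and rules were chosen with earlier results of these data known. Reads that match more than 1 entry are split by Salmon, which leaves near-identical copies uncertain.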

Additional observations from a re-analysis of the deposited data

Results flagged for a closer look

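SPL13A stood out because its enrichment differed between the MTA-GFP and control lines, with a log2 double ratio of 6.76 (2.66 to 10.9). The value rests on 0 reads in the control IP and depends on the reads added, so it is no bound. With 3 reads in that library and the other reads taken as exact, the double ratio was 8.79-fold, and the counting interval starts at 6.30-fold. Summed with its near-identical copy SPL13B, the log2 double ratio was 0.87 (0.41 to 1.33), below 2-fold. How the quantifier divided the reads of the pair in each library was not tested.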

How the results depend on the processing

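Over all 10 loci the MTA-GFP enrichment, a log2 of 0.71, kept its direction and an interval off 0 under each alternative with an interval. The control IP over input of 0.32 turned to -0.82 with all reads and to -0.20 with nuclear-encoded reads, was at 0.205 with an interval that included 0 with nuclear mRNA reads, and at 0.058 on deposited TPM with 0.5 added. The double ratio of 0.39 lost its interval off 0 without SPL13B (0.23), without the SPL13 pair (0.049) and without loci that overlap another gene (0.29, chosen after seeing the data). MTA-GFP IP over control IP, at 0.060, moved to 2.41 with all reads, 1.48 with nuclear-encoded reads and 0.415 with nuclear mRNA reads. On TPM it was 0.489 with 0.5 added and 0.121 with 0.001 added (chosen after seeing the data). Without the SPL13 pair it turned to -0.249, with an interval off 0 (-0.483 to -0.010). The input ratio of -0.32 (-0.57 to -0.08) had an interval that included 0 without SPL13B (-0.27) and without the pair (-0.30). The scales differ by construction, since the median locus moves with them. Causes other than that were not tested.

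Calls of SPL loci in MTA-GFP IP over input numbered 2, and 8 with all reads or nuclear-encoded reads (93.0% and 88.6% of all loci higher). They numbered 4 at 1.5-fold (11.6% of all loci higher) and 0 on TPM with 0.5 added. Counts on TPM are by fold only, and no share over all loci is given for them. Adding 0.5 pulled ratios of weakly read loci towards 1, as for SPL9 here, from a log2 of 1.945 to 0.004. Counts of 0 with 0.5 added thus follow largely from the added value and cannot be read as a result. In the control enrichment 2 were higher and 1 lower, but 0 and 3 with all reads (1.26% and 52.7% of all loci). The counts were 1 and 2 with nuclear-encoded reads (3.26% and 26.1%), 1 and 1 with nuclear mRNA reads (7.26% and 14.6%), and 0 in all on that TPM scale. In the double ratio the count of 1 became 8 with all reads or nuclear-encoded reads (96.5% and 89.9% of all loci higher). It became 4 with nuclear mRNA reads (17.7%), 2 at 1.5-fold (11.3%) and 0 with the SPL13 pair summed. On TPM it was 0 with 0.5 added and 3 (2 higher, 1 lower) with 0.001 added (chosen after seeing the data). Between the IPs the count of 1 became 8 with all reads (96.9%) and 7 with nuclear-encoded reads (76.9%). It became 2 at 1.5-fold (1 higher, 1 lower, against 7.76% and 9.15% of all loci), 0 with the pair summed and 0 on TPM with 0.5 added. With a minimum of 10 reads it was 2 (1 higher, 1 lower), and with no minimum 3 (1 higher, 2 lower). No share over all loci is given for these minimums, so a change of all loci cannot be told apart there. Between the inputs the count of 1 became 4 with all reads and 5 with nuclear-encoded reads (43.4% and 46.5% of all loci lower) and 0 on both TPM scales.

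With all reads, control IP over input turned for SPL2 (-0.67), SPL10 (-0.21) and SPL13B (-1.14), the double ratio for SPL2 (3.25), SPL11 (2.43) and SPL6 (2.57), and MTA-GFP IP over control IP for SPL2 (2.14), SPL10 (2.01) and SPL11 (1.48). No paired analysis was possible because each group holds 1 library, and for the same reason no library could be left out.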

Other observations

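Transcript models within the SPL loci received different shares of the reads in different libraries. For SPL2, model 2 held 71.8% (66.3 to 77.3) of the locus in the MTA-GFP IP and 93.6% (84.9 to 98.9) in its input, against 87.9% (79.0 to 94.5) in the control IP and 91.3% (83.8 to 95.5) in the control input. The MTA-GFP IP was the SPL2 library with reads on all 3 models. For SPL13B, model 2 led with 60.5% (55.9 to 64.9) in the MTA-GFP IP, and model 1 led with 59.0% (48.3 to 70.4) in the MTA-GFP input. Model 2 of SPL13B led in the control IP with 64.1% (53.4 to 73.1) and in the control input with 97.3% (94.1 to 99.2). SPL10 has 7 models. Model 4 led in the MTA-GFP IP with 45.9% (36.8 to 54.7) and in its input with 81.3% (44.4 to 97.5) of 10 reads. Model 6 led in the control IP with 64.6% (47.2 to 78.8), and model 5 in the control input with 47.8% (31.5 to 63.9). The intervals cover counting error and not the error of dividing reads between overlapping models.

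The loci whose log2 TMM-scaled reads, centred on their mean over the 4 libraries, lay nearest to those of the summed SPL loci were EXO70B1, COI1, IDD1, LHW and REF4, at Euclidean log2 distances of 0.047 to 0.079 over 4 libraries. Among 7701 loci with at least 200 reads, 183 lay within 0.25.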
